A study of Mus musculus with 12 samples.

Results

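Autophagy delivers cytoplasmic material to lysosomes for breakdown, and 10 of its genes were followed here through rods and whole retina: Ulk1, Becn1, Rubcn, Atg7, Atg5, Map1lc3a, Map1lc3b, Sqstm1, Lamp2 and Tfeb. They were chosen by name as genes of autophagy and the lysosome, and all 10 were found among the 56748 genes of the deposited table. The samples came from retinas of mice aged 2 weeks from a study of Shp2 (gene Ptpn11) deletion in rods. Control mice (Het; RiboTag;Shp2fl/+;i75-Rod-Cre) carried 1 floxed Shp2 allele, and their littermates (KO; RiboTag;Shp2fl/fl;i75-Rod-Cre) carried both alleles floxed. Cre was present in both genotypes, so by design the controls lose 1 allele in rods as well. Both genotypes were homozygous for RiboTag, a floxed Rpl22 gene that gains an HA epitope where Cre acts, and the i75 Cre acts in rods. Frozen tissue was taken after perfusion with cycloheximide, which stalls ribosomes on mRNA, and polyA RNA was sequenced from whole retina lysate (retina) and from the ribosomes pulled down by their HA tag (rod). Each of the 4 groups, Het retina, KO retina, Het rod and KO rod, had 3 libraries.

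In autophagy, the kinase Ulk1 and the lipid kinase complex that contains Becn1 start a membrane sac, a ubiquitin-like system that includes Atg7 and Atg5 attaches LC3 proteins to it, and receptors such as Sqstm1 tie cargo to LC3. The closed vesicle then fuses with a lysosome, whose membrane carries Lamp2, and Tfeb is a transcription factor of lysosomal and autophagy genes. Photoreceptors renew their outer segments throughout life and depend on degradation in lysosomes, both in their own cell body and in the pigment epithelium that takes up shed discs.

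The deposited totals were nearly equal within a fraction, 14525527 to 14527992 in retina and 16263948 to 16265259 in rods, because the values had been scaled before deposit. From the spacing of low values, the reads on genes were estimated at 9980000 to 19200000 in 5 retina libraries and 11900000 to 25300000 in the rod libraries, and could not be estimated for Het retina replicate 3. Levels below are signal after TMM scaling over all 12 libraries, and fold changes are on the scale log2(scaled signal + 2). The separate animals behind the libraries are not named in the sources used here, so p-values measure only the spread between these samples.

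The labelled fractions were checked against markers of retinal cell types. All 9 rod markers used were higher in rod than in retina libraries of both genotypes. Their summed share of the signal was 3.01, 2.97 and 2.32% in Het retina, 3.11, 2.88 and 2.63% in KO retina. In rods it was 7.05, 7.04 and 7.76% for Het and 8.43, 8.69 and 7.54% for KO, with Gnat1 the highest of the 9. All 8 cone, 7 amacrine, 7 ganglion cell and 8 Muller glia markers were lower in rods than in retina in both genotypes, the most abundant being Opn1sw, Pax6, Nefl and Glul. The summed share of cone markers was 0.113, 0.108 and 0.0953% in Het retina and 0.0288, 0.0379 and 0.0466% in Het rods, and that of Muller glia 0.357, 0.501 and 0.439% against 0.0108, 0.0151 and 0.0159%. Of 9 microglial markers, led by Csf1r, 7 of 7 tested were lower in Het rods and 8 of 8 in KO rods. In Het rod replicates 1 to 3, 8, 4 and 4 of them were at 0, and in KO rods 5, 5 and 4. Vascular markers, led by Kdr, were lower for 7 of 7 tested in Het and 6 of 6 in KO. Among 8 bipolar cell markers 7 were lower, the exception being the most abundant, Prkca (log2 fold change 0.04 ± 0.15 SE in Het). Between KO and Het rods, 2 of 9 rod markers, 2 of 7 tested Muller glia markers and 1 of 5 tested amacrine markers (Slc6a9) were called higher, and no cone, bipolar, ganglion cell, vascular, lens or pigment epithelium marker was called.

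Lens and pigment epithelium differed most between libraries of 1 group. The 12 lens markers, led by Cryaa, made up 0.00104, 1.73 and 1.69% of the signal in Het retina replicates 1 to 3 and 0.472, 1.13 and 5.51% in KO retina. In rods their share was 3.69e-05, 0.0197 and 0.0304% in Het and 0.0122, 0.0249 and 0.0883% in KO. The 7 pigment epithelium markers, led by Tyrp1, made up 0.0129, 0.0109 and 0.0326% in Het retina and 0.00277, 0.00691 and 0.0649% in KO retina. Of the lens markers 7 of 11 tested were lower in rods in KO and 0 in Het, and of the pigment epithelium markers 2 of 7 in KO and 6 of 6 in Het. The part of lens and pigment epithelium in the retina values of the 10 genes was not tested.

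The targeted gene, Ptpn11, was at 2674, 2670 and 2623 in Het rods and at 2045, 2560 and 2290 in KO rods. Every KO rod library was below every Het rod library, but the difference did not pass (log2 fold change −0.23 ± 0.09 SE, limma adjusted p = 0.078). In retina Ptpn11 was at 2049, 2307 and 1897 in Het and 1909, 1876 and 2294 in KO, and the groups overlapped. Values of the whole gene do not separate the deleted exons from those that remain, so they check the genotype labels only in part.

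Per kilobase of the longest coding transcript, the LC3 gene Map1lc3b had the highest level of the 10 genes in every group, at 761 ± 195 (SD, n = 3) for Het retina, 795 ± 148 (SD, n = 3) for KO retina, 983 ± 62.8 (SD, n = 3) for Het rods and 1189 ± 68.8 (SD, n = 3) for KO rods. In Het rods it was followed by Lamp2 at 465 ± 19.7 (SD, n = 3). Next came Map1lc3a at 233 ± 36.6, Atg5 at 223 ± 28.6 and Becn1 at 206 ± 13.3 (SD, n = 3 each), 3 neighbours whose libraries overlapped. Sqstm1 at 174 ± 24.4 and Rubcn at 138 ± 14.7 (SD, n = 3 each) overlapped in level as well. Ulk1 at 101 ± 11.7, Atg7 at 65 ± 9.21 and Tfeb at 6.15 ± 0.989 (SD, n = 3 each) were the lowest and stood apart from each other.

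In Het retina the cargo receptor Sqstm1 ranked next to Map1lc3b, at 725 ± 179 per kilobase (SD, n = 3), and their libraries overlapped. Map1lc3a followed at 498 ± 269 and Lamp2 at 392 ± 145 (SD, n = 3 each), with overlapping libraries. With the length of the principal transcript, a choice made after seeing the data, Sqstm1 came before Map1lc3b in both retina groups, at 951 against 792 per kilobase in Het and 973 against 827 in KO. In Het rods Sqstm1 then moved to 229, between Map1lc3a at 233 and Atg5 at 223. Tfeb had the lowest level in all 4 groups, with deposited values of 11 to 85, and its differences rest on few reads.

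**Figure D1:**
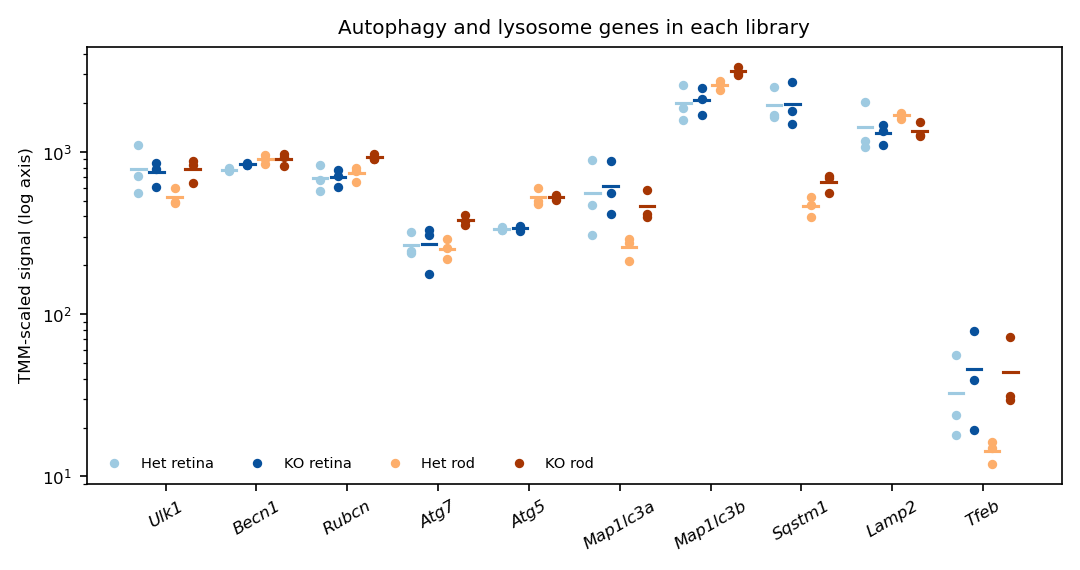
TMM-scaled signal of the 10 genes (log axis) in each of 12 libraries; points are libraries and bars are means of 3 libraries of Het retina, KO retina, Het rod and KO rod. Sqstm1 sits between 1473 and 2689 in the retina libraries and between 398 and 713 in the rod libraries.

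The comparison of rods with retina asked which of these mRNAs were richer or poorer on rod ribosomes than in the whole tissue. Sqstm1 was much lower in rods in both genotypes and Atg5 was higher. Ulk1 and Becn1, which act in initiation, were not called, nor was Rubcn, which binds the Becn1 complex. With a block for replicate number, Ulk1 and Tfeb were called lower in Het rods as well, as given below. Without that block, in Het mice 1 of 10 genes was called higher and 2 lower (adjusted p below 0.05 and log2 fold change beyond 0.5). Of the 16110 genes tested, 22.7% were called higher and 36.4% lower. In KO mice, in libraries that the Het comparison does not share, 2 were called higher and 1 lower, where 26.9% of the 16121 genes tested were called higher and 36.1% lower. These shares are no more than those over all genes. All 10 genes passed the filter on low values in every comparison. In bulk retina, fewer cells of a type and less RNA per cell cannot be told apart, and pulldown compares ribosome-bound with total RNA.

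Sqstm1, the receptor that links ubiquitin-tagged cargo to LC3, was at 1689, 2490 and 1634 in Het retina and at 470, 529 and 398 in Het rods. In KO mice it was at 1786, 1473 and 2689 in retina and 687, 560 and 713 in rods. No rod library reached the level of any retina library. The log2 fold change was −2.04 ± 0.19 SE in Het (limma adjusted p = 2.8e-05) and −1.57 ± 0.21 SE in KO (limma adjusted p = 2e-04). With the GC trend of each library removed it was −1.99 and −1.70. Part of Sqstm1 lies over exons of Mrnip on the opposite strand, with 20.4% of its 50-mers shared, and the strand of counting is not given in the sources used here, so reads over the shared stretch cannot be told apart.

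Atg5, part of the complex that places LC3 on the membrane, was at 329, 329 and 343 in Het retina and 601, 474 and 497 in Het rods. In KO it was at 345, 348 and 327 in retina and 523, 506 and 545 in rods. All 6 rod libraries were above all 6 retina libraries. The log2 fold change was 0.64 ± 0.14 SE in Het (limma adjusted p = 0.004) and 0.62 ± 0.12 SE in KO (limma adjusted p = 0.0017), but with library size as the only scaling it was 0.20 and 0.06 and was called in neither. With the GC trend removed it was 0.40 in Het, under the fold limit, and 0.61 in KO.

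Of the LC3 genes, Map1lc3a was called in Het and Map1lc3b in KO, but neither is shown to differ between genotypes. The direct test of that difference gave 0.59 ± 0.50 SE for Map1lc3a (limma adjusted p = 0.81) and 0.20 ± 0.24 SE for Map1lc3b (limma adjusted p = 0.84). Map1lc3a was at 470, 885 and 305 in Het retina and 213, 289 and 276 in Het rods, and the highest rod library lay just under the lowest retina library (−0.96 ± 0.35 SE, limma adjusted p = 0.038). That call was lost with the GC trend removed, where the value was 0.02. It was also lost without the trend and robust steps of the fit (−0.96) and without Het retina replicate 1 (−0.91). The same held without Het rod replicates 1, 2 or 3 (−0.83, −1.05 and −1.01). Apart from the GC step, the fold change stayed about as large and the adjusted p rose above 0.05. In KO mice Map1lc3a was at 559, 414 and 875 in retina and 395, 580 and 411 in rods, and the groups overlapped (−0.37 ± 0.26 SE, limma adjusted p = 0.24). Without KO retina replicate 2 it was called lower, at −0.61 (limma adjusted p = 0.041). Map1lc3b was at 2115, 1694 and 2472 in KO retina and 3070, 3335 and 2989 in KO rods, without overlap (0.59 ± 0.14 SE, limma adjusted p = 0.0058). In Het it was at 1865, 2574 and 1575 in retina and 2406, 2730 and 2628 in rods, with overlap (0.40 ± 0.18 SE, limma adjusted p = 0.08). The KO call fell under the fold limit at 0.45 with the GC trend removed, and was lost without KO retina replicate 2. The Het difference, by contrast, was called at 0.52 with the GC trend removed (limma adjusted p = 0.00041) and at 0.62 without Het retina replicate 2.

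Replicate numbers paired the Het rod and Het retina libraries by the correlation of their deviations. With the replicate block, 4 of the 10 genes were called lower in Het rods instead of 2, where 37.6% of all genes were called lower. The added genes were the kinase Ulk1 (−0.54 ± 0.16 SE, limma adjusted p = 0.017) and Tfeb (−0.93 ± 0.34 SE, limma adjusted p = 0.04). In KO rods against KO retina with the same block, Ulk1 was at 0.06 ± 0.20 SE and Tfeb at 0.04 ± 0.54 SE, and neither was called. Ulk1 was at 705, 1106 and 555 in Het retina and 492, 594 and 486 in Het rods, and the groups overlapped. Tfeb was at 24, 56 and 17.9 in Het retina and 14.9, 16.4 and 11.9 in Het rods, without overlap. With the GC trend removed as well, 1 of the 10 genes was called lower, Sqstm1, where 37.8% of all genes were. Ulk1 was then at −0.12 and Tfeb at 0.05.

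The other 4 genes were not called in either genotype in the separate fits. Becn1 was at 842, 901 and 958 in Het rods against 771, 760 and 796 in Het retina, without overlap (0.21 ± 0.11 SE, limma adjusted p = 0.13), and gave 0.10 in KO, with overlap. Rubcn, which binds the Becn1 complex and restrains it, was at 762, 797 and 647 in Het rods against 667, 826 and 576 in Het retina, with overlap (0.10). In KO it was at 907, 902 and 971 in rods against 705, 610 and 771 in retina, without overlap and under the fold limit (0.41 ± 0.12 SE, limma adjusted p = 0.014).

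Atg7, the activating enzyme of the LC3 system, was at 237, 319 and 245 in Het retina and 217, 289 and 254 in Het rods (−0.07). In KO it was at 307, 177 and 330 in retina and 377, 352 and 407 in rods, without overlap (0.52 ± 0.23 SE, limma adjusted p = 0.072). It was called higher in 1 fit of all groups, at 0.52, and without KO retina replicate 3, at 0.65 (limma adjusted p = 0.035). Lamp2 was at 1157, 1064 and 2015 in Het retina and overlapped with rods (0.31 ± 0.22 SE, limma adjusted p = 0.27). Without the high replicate 3 it was called at 0.70 (limma adjusted p = 0.0019). That fit also tested fewer genes, 13396, and the median over them was 0.21 instead of −0.08. How far the move of Lamp2 rests on replicate 3 was not tested. In KO its log2 fold change was 0.05. Of the 50-mers of Becn1, 45.7% are shared with Cntd1 on the opposite strand.

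Library size as the only scaling moved the median of all genes from −0.08 to −0.51 in Het and from 0.01 to −0.55 in KO, and the share of calls that were higher from 38.4 to 13.6% and from 42.8 to 12.7%. Under it none of the 10 was called higher in either genotype, 5 were called lower in Het and 3 in KO, and Sqstm1 was at −2.48 and −2.13. These counts stand beside 7.25% of all genes called higher and 45.9% lower in Het, and 7.1% and 48.7% in KO. Becn1, Rubcn and Lamp2 changed sign in both genotypes, Map1lc3b in Het, and Atg7, Ulk1 and Tfeb in KO.

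The wider pathway was described by 10 lists, most of which also hold some of the 10 genes. The share of a list called is given beside the 22.7% higher and 36.4% lower over all genes in Het, and the 26.9% and 36.1% in KO. With library size only, these shares become 7.25% higher and 45.9% lower in Het, and 7.1% and 48.7% in KO. Removal of the GC trend gave 23% higher and 37.2% lower in Het, and 28.2 and 36.2% in KO. That step moved the genes called higher in Het from 4 to 2 for conjugation, 3 to 6 for cargo receptors, 2 to 4 for fusion and 10 to 12 for hydrolases, and every other list count of these comparisons by at most 1. No count was set against chance. Among 13 genes of initiation and nucleation, 5 were higher and none lower in Het rods and 8 were higher and none lower in KO rods, or 38.5 and 61.5% higher, with medians of 0.39 and 0.56 beside −0.08 and 0.01 over all genes tested. With library size only, 1 was higher and 1 lower in Het and 2 were higher in KO, and the medians were −0.05 and 0, beside −0.51 and −0.55. Uvrag, a partner of Becn1, had a log2 fold change of 1.10 ± 0.12 SE in Het (limma adjusted p = 6.1e-05), and the lipid kinase Pik3c3 of 0.84 ± 0.13 SE (limma adjusted p = 0.00044). In KO the largest were Atg101 of the Ulk1 complex (1.20 ± 0.29 SE) and Pik3r4 of the lipid kinase complex (1.16 ± 0.13 SE). The most abundant, the scaffold Rb1cc1, was at 0.67 in Het and 0.56 in KO, and at 0 in KO with library size only.

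Among 11 genes of ubiquitin-like conjugation 4 were higher and 1 lower in Het, and 5 and 1 in KO, or 36.4 and 45.5% higher and 9.09% lower in each. Library size only left 2 higher and 2 lower in Het, and 1 and 3 in KO. Atg4c, a protease that trims LC3 proteins, was higher (1.27 ± 0.11 SE in Het, 1.09 ± 0.16 SE in KO), as was Atg12 (1.01 ± 0.13 SE in Het), and Atg4d was at 0.96 ± 0.23 SE in KO. Atg16l2 was lower, but near the floor in rods, at 47.1, 91.8 and 52.7 in Het retina and 10.6, 6.57 and 11.9 in Het rods, so no fold change is given. Of 11 genes of membrane supply 2 were higher and 1 lower in Het, and 3 and 1 in KO, or 18.2 and 27.3% higher, close to all genes, and 9.09% lower in each. Library size only gave 1 higher and 3 lower in Het, and 1 and 4 in KO. They were led by Vmp1 (1.30 ± 0.13 SE in Het) and Tmem41b (0.79 ± 0.16 SE), and the lower gene was Atg9b. It was at 24.9, 27.5 and 8.93 in Het retina and 1.06, 1.09 and 1.08 in Het rods, where its fold change depends on the 2 added before the log, so none is given.

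Of 14 cargo receptors, 3 were higher and 2 lower in Het, and 5 and 3 in KO. These are 21.4 and 35.7% higher and 14.3 and 21.4% lower, the first close to all genes. Library size only gave 3 higher and 4 lower in Het, and 3 and 7 in KO. Tax1bp1 had a log2 fold change of 1.60 ± 0.13 SE in Het and 1.44 ± 0.17 SE in KO, and Optn of 1.41 ± 0.11 SE and 1.40 ± 0.10 SE (limma adjusted p at most 9.5e-05). Besides Sqstm1, the largest falls were Wdfy3 in Het (−0.82 ± 0.16 SE) and the mitophagy receptor Fundc1 in KO (−0.60 ± 0.14 SE). Of 5 ATG8 genes 1 was higher and 1 lower in Het (20% each), and 2 were higher in KO (40%). Library size only gave 0 higher and 2 lower in each genotype. Gabarapl2 was at 0.67 ± 0.10 SE in Het, and Gabarapl1, the most abundant, at 0.47 ± 0.11 SE.

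Of 14 fusion genes 2 were higher and 1 lower in Het, and 4 and 1 in KO, or 14.3 and 28.6% higher and 7.14% lower in each. With library size only, 0 were higher and 6 lower in Het, and 2 and 6 in KO. Vps33a (0.67 ± 0.10 SE) and Vps11 (0.61 ± 0.15 SE), subunits of a tethering complex, were higher in Het, and Vps18 of that complex (1.63 ± 0.31 SE) and Tecpr1 (1.07 ± 0.21 SE) in KO. The fall was the SNARE Stx17 (−0.95 ± 0.17 SE in Het, −1.09 ± 0.16 SE in KO), and Rab7, the most abundant, was at −0.28 ± 0.10 SE in Het.

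Of 39 lysosomal hydrolases and activators 10 were higher and 12 lower in Het (25.6 and 30.8%, close to all genes), and 15 and 11 in KO (38.5 and 28.2%). Library size only gave 5 higher and 18 lower in Het, and 6 and 17 in KO. Ctsb, a protease and the most abundant, was higher (1.02 ± 0.11 SE in Het), as were Gla (1.30 ± 0.11 SE) and the protease Lgmn (1.28 ± 0.17 SE). The lower genes named by the rule were near the floor in rods, so no fold change is given. Ctsh was at 182, 208 and 276 in Het retina and 1.06, 6.57 and 7.55 in Het rods, and Idua at 72, 100 and 109 against 1.06, 0 and 1.08. In KO the lipase Lipa was at 374, 421 and 578 in retina and 5.89, 8.38 and 13.9 in rods, and the largest rises were Lgmn (1.44 ± 0.12 SE) and Sgsh (1.41 ± 0.49 SE), whose groups overlapped.

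Of 13 lysosomal membrane proteins 3 were higher and 2 lower in Het (23.1 and 15.4%), and 6 and 3 in KO (46.2 and 23.1%). Library size only gave 3 higher and 5 lower in Het, and 3 and 7 in KO. The cholesterol exporter Npc1 was at 1.36 ± 0.12 SE in Het and 1.51 ± 0.14 SE in KO, Mfsd8 at 1 ± 0.17 SE in Het, Clcn7 at 1.13 ± 0.15 SE in KO and Lamp1, the most abundant, at 0.96 ± 0.10 SE in Het. Lower were Cd63 (−1.69 ± 0.22 SE in Het) and the channel Tmem175 (−1.76 ± 0.30 SE in Het). Of 18 genes of the proton pump 5 were higher and 2 lower in each genotype (27.8 and 11.1%), and library size only gave 0 higher in both, with 4 lower in Het and 5 in KO. In Het, Atp6v0e2 was at 0.93 ± 0.13 SE, Atp6ap2 at 0.73 ± 0.13 SE and Atp6v1b2, the most abundant, at 0.65 ± 0.09 SE, with Atp6v1g2 at −2.99 ± 0.14 SE and Atp6v0e at −1.78 ± 0.21 SE. Of 3 tested MiT/TFE factors 1 was lower in each genotype (33.3%), Mitf, at −1.03 ± 0.30 SE in Het (limma adjusted p = 0.016) and −1.21 ± 0.32 SE in KO (limma adjusted p = 0.0083). The Het call of Mitf was lost without Het retina replicates 1 or 3 or Het rod replicate 3. Mitf was at 99.4, 79.9 and 138 in Het retina and 84.9, 107 and 167 in KO retina, the same order of replicates as the pigment epithelium shares. The part of pigment epithelium in the fall of Mitf was not tested. Tfe3, the most abundant, was higher in KO (0.75 ± 0.14 SE, limma adjusted p = 0.0012). Library size only gave 2 lower in Het, 1 lower in KO and 0 higher in either, with Tfe3 at 0.19 in KO.

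**Figure D2:**
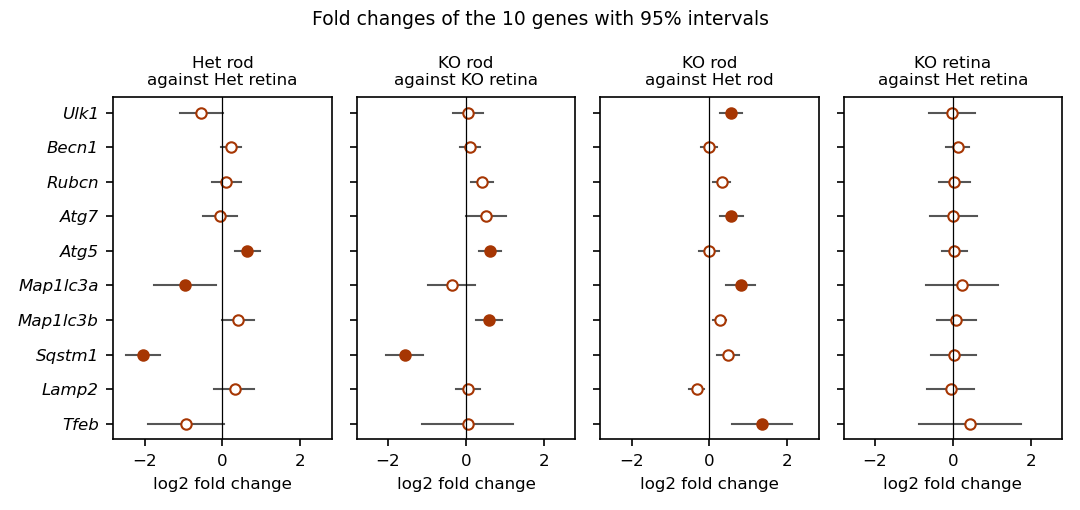
Log2 fold changes of the 10 genes (x axis) in 4 comparisons of 3 against 3 libraries; lines are 95% intervals, and filled points were called. Sqstm1 is at −2.04 and −1.57 in the panels of rod against retina, and every interval in the panel of KO retina against Het retina includes 0.

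KO rods against Het rods asked which mRNAs on rod ribosomes differed where both Shp2 alleles were floxed instead of 1. Before correction for GC content, 4 of the 10 genes were called higher in KO rods, Ulk1, Atg7, Map1lc3a and Tfeb, and none lower, where 12.1% of the 13055 genes tested were called higher and 1.55% lower. With the GC trend of each library removed none of the 10 was called, and in 1 fit of all 4 groups neither the 10 nor any other gene was called. In that fit the fold changes stayed, at 0.57 for Ulk1, 0.58 for Atg7, 0.82 for Map1lc3a and 1.39 for Tfeb, with larger errors (limma adjusted p at least 0.22). At adjusted p alone 8 of 10 passed, where 24% of genes did, and the groups did not overlap for 8 of 10, where 43.5% of genes had groups that did not overlap. The median log2 fold change of the 10 was 0.39, beside 0.01 over all genes tested. After removal of the GC trend 1 of 10 passed at adjusted p alone, the groups did not overlap for 3, and the median was 0.17 beside 0.10. In that fit 2.73% of all genes were called higher and 0.783% lower. Shares over all genes for adjusted p alone and for overlap are not given for that fit, so those counts have no background here.

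Ulk1 was at 492, 594 and 486 in Het rods, compared with 828, 880 and 645 for KO (0.55 ± 0.13 SE, limma adjusted p = 0.012). Atg7 was at 217, 289 and 254 in Het and 377, 352 and 407 in KO (0.56 ± 0.13 SE, limma adjusted p = 0.011). Every KO library was above every Het library for both genes.

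Map1lc3a was at 213, 289 and 276 in Het and 395, 580 and 411 in KO (0.80 ± 0.17 SE, limma adjusted p = 0.0074). Tfeb was at 14.9, 16.4 and 11.9 in Het and 29.5, 71.8 and 31.4 in KO (1.36 ± 0.35 SE, limma adjusted p = 0.017). The groups did not overlap for either gene, and KO replicate 2 was the highest library of both. When each of the 6 rod libraries was left out in turn, Map1lc3a was called every time, at 0.59 to 0.90. Atg7 lost its call without Het rod replicate 1, at 0.46. Tfeb lost its call without Het rod replicates 1 or 3, at 1.39 and 1.24, or KO rod replicate 2, at 0.93. Ulk1 lost its call without Het rod replicates 1 or 3, at 0.52 and 0.50, or KO rod replicates 1 or 2, at 0.50 and 0.43. With library size as the only scaling Map1lc3a and Tfeb were called, where 9.21% of genes were called higher. Without the trend and robust steps Atg7 and Map1lc3a were called, where 8.3% of genes were called higher. Library size alone moved the share of calls over all genes that were higher from 88.7 to 67.3%.

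The remaining genes were under the fold limit or did not pass. Sqstm1, at 470, 529 and 398 in Het and 687, 560 and 713 in KO, gave 0.47 ± 0.13 SE (limma adjusted p = 0.022). It was called higher without Het rod replicate 2, at 0.53 (limma adjusted p = 0.018), and without KO rod replicate 2, at 0.54 (limma adjusted p = 0.012). Rubcn gave 0.32 ± 0.10 SE (limma adjusted p = 0.037) and Map1lc3b 0.26 ± 0.08 SE (limma adjusted p = 0.041). Lamp2, at 1732, 1595 and 1695 in Het and 1276, 1258 and 1521 in KO, gave −0.33 ± 0.09 SE (limma adjusted p = 0.022). Becn1 and Atg5 were each at −0.01, with 95% intervals of −0.22 to 0.19 and −0.26 to 0.24.

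These differences followed the GC content of the genes. The genes called higher over the whole table had a median GC content of 57.4% and those called lower 43.2%, beside 49.5% for all genes tested. Across genes, which are not independent replicates, the Spearman correlation of log2 fold change with GC content was 0.70, and over the 10 genes, as a description, it was 0.82. Tfeb at 63.2%, Map1lc3a at 63.1% and Ulk1 at 58% had the highest GC content of the 10, and Lamp2 at 38.7%, Atg5 at 44.6% and Becn1 at 45% the lowest.

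The libraries themselves differed in this respect. The GC trend, taken as the median log2 deviation of the 10% of genes with the highest GC content minus that of the 10% with the lowest, was 0.42, 0.76 and 0.28 for KO rods, and −0.81, −0.23 and −0.42 for Het rods. The ranges do not meet, and in rods a GC effect cannot be told apart from genotype. In retina it was −0.24, 0.86 and −0.84 in Het and 0.01, −0.63 and 0.90 in KO, and the groups overlapped. With the trend removed, the genes called fell from 1781 to 453, the share of them that were higher went from 88.7 to 77.7%, and Ulk1 was at 0.03, Map1lc3a at −0.07, Tfeb at 0.49 ± 0.30 SE (limma adjusted p = 0.32) and Lamp2 at 0.03. Atg7 was the exception in the 10, at 0.45 ± 0.11 SE (limma adjusted p = 0.024), without overlap and just under the fold limit, and Becn1 and Atg5 were at 0.25 and 0.26, neither of which passed.

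**Figure D3:**
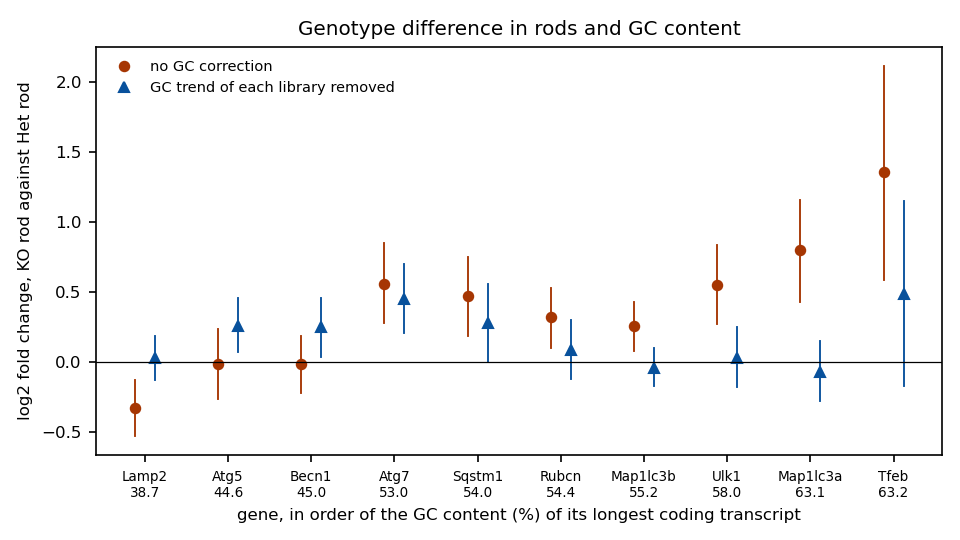
Log2 fold change of KO rod against Het rod (y axis) for the 10 genes in order of GC content (x axis), with no GC correction (circles) and with the GC trend of each library removed (triangles); lines are 95% intervals. The circles run from −0.33 for Lamp2 to 1.36 for Tfeb, and the triangles from −0.07 for Map1lc3a to 0.49 for Tfeb.

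In the wider pathway, the count called in KO rods is followed by the count with the GC trend removed. Over all genes tested, 12.1% were called higher, and 2.73% with the trend removed. Of 13 initiation genes 2 were higher (15.4%), Ulk1 and Atg101, then 1, and Atg101 went from 1.29 ± 0.23 SE to 0.77. Of 10 tested genes of membrane supply 2 were higher (20%), then 1, with Atg2a at 1.25 ± 0.17 SE and 0.58, and Atg9a, the lipid scramblase, at 0.58 ± 0.12 SE and 0.22. Of 11 conjugation genes 2 were higher (18.2%) and 1 lower, then 1 higher, with Atg4d at 0.89 ± 0.20 SE and 0.66 and Atg10 at −0.55 ± 0.14 SE and −0.21.

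Of 14 fusion genes 3 were higher (21.4%), then 1, and the tethering subunit Vps18 was at 1.14 ± 0.22 SE and 0.62, and Plekhm1 at 0.73 ± 0.16 SE and 0.37. Of 13 lysosomal membrane proteins Cln3 was higher (7.69%) at 0.66 ± 0.13 SE, and at 0.69 with the trend removed (limma adjusted p = 0.0038). Of 37 tested hydrolases and activators 6 were higher (16.2%), then 2, and Gaa, the acid glucosidase that degrades glycogen, was at 1.5 ± 0.14 SE and 0.86, and Naglu at 0.82 ± 0.19 SE and 0.16. Of 14 cargo receptors 3 were higher (21.4%), led by Fkbp8 (1.27 ± 0.25 SE, then 0.41) and Calcoco1 (0.71 ± 0.11 SE, then 0.21), and 1 lower, Bnip3 (−0.53 ± 0.12 SE, then −0.20). None was called with the trend removed, as held for the ATG8 family, with 1 of 5 called before, and the MiT/TFE factors, with 1 of 3. The same held for the proton pump, with 1 of 18 called before, Atp6v0c (0.95 ± 0.22 SE). Atp6v0c stayed past the fold limit with the trend removed, at 0.59 without overlap (limma adjusted p = 0.065). The most abundant genes of the lists were not called, among them Ctsb (0.21 ± 0.08 SE), Lamp1 (0.03 ± 0.07 SE), Tax1bp1 (−0.21 ± 0.08 SE) and Gabarapl1 (−0.06 ± 0.08 SE).

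KO retina against Het retina called 0 of 16863 genes (0%) with limma, and so 0 of the 10, and 140 genes had an unadjusted p under 0.05. The groups overlapped for 9 of the 10, where 3.5% of genes had groups that did not overlap. The exception was Becn1, at 771, 760 and 796 in Het and 828, 857 and 826 in KO (0.12 ± 0.13 SE, limma adjusted p = 1). The intervals were wide for Tfeb (−0.88 to 1.74) and Map1lc3a (−0.69 to 1.17) and narrow for Atg5 (−0.29 to 0.37). Libraries within each retina group differed in GC trend and lens share, as given above, and the 0 calls do not show that levels were equal.

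Whether the KO effect differed between rods and retina was tested directly over all 12 libraries, taken as unpaired. None of 12839 genes passed (0%) with limma, 361 had an unadjusted p under 0.05, and the lowest adjusted p among the 10 was 0.81. With a block for replicate number within each genotype, none passed either, and 519 had an unadjusted limma p under 0.05. Without the block, the difference was 0.98 ± 0.73 SE for Tfeb, 0.60 ± 0.32 SE for Ulk1 and 0.59 ± 0.31 SE for Atg7, with intervals that include 0. The calls in rods are therefore not shown to differ from the retina.

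The genes most like Atg5 and Sqstm1, those with the largest rise and fall in Het rods, were found by Pearson r of log2 levels over the 12 libraries among 17191 genes. They were Cpsf3 (r = 0.99), Mrps22 (0.989) and Pik3c3 (0.989) for Atg5, and Inf2 (0.994), Prmt2 (0.993) and Cntfr (0.993) for Sqstm1. The libraries fall into rods and retina, so these values mostly restate that split.

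Promoters were searched for CACGTG, the letters that Tfeb is known to bind, which read the same on both strands. Windows of 250 bases before to 50 after the start were found in RefSeq (GRCm38.p6) for 8 of the 10 genes, and 3 of the 8 held a match, where 8.09% of 27025 genes with a window did, or 7.15% of 32851 windows. The longer motif TCACGTGA was in 0 of the 8, and in 1.12% of all genes with a window. The match of Atg5 was 14 bases before the start, and it is shown because Atg5 was higher in rods in both genotypes, with the motif in capitals, at chr10:44268298-44268357 on the plus strand:
Atg5: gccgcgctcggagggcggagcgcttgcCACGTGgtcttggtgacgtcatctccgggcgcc
The matches of Rubcn and Atg7 lay in windows at starts 9400 and 27999 bases inside the annotated gene. A match is a description of the letters, and binding was not measured. Any part of Tfeb in the higher level of Atg5 in rods was not tested. In the lists, CACGTG was held by 11 of 31 hydrolase genes with a window, 4 of 13 of the proton pump, 4 of 12 lysosomal membrane proteins, 3 of 10 of initiation, 3 of 9 of conjugation, 2 of 12 cargo receptors and 2 of 11 of fusion. It was held by 0 of 10 of membrane supply, 0 of 4 of the ATG8 family and 0 of 4 MiT/TFE factors. The longer motif was held by 3 of 12 lysosomal membrane proteins, 3 of 13 of the proton pump, 2 of 11 of fusion, 3 of 31 hydrolase genes, 1 of 10 of initiation and 1 of 9 of conjugation, and by 0 in the other lists.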

How the data were processed

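The study sequenced polyA RNA of 12 libraries after cDNA conversion with a SMART-Seq V4 kit. The submitters' processing notes name CASAVA 1.8.2, HISAT2, DESeq2, edgeR and the build GRCm39, without roles. The authors deposited 1 table of whole numbers, a read signal already scaled to nearly equal totals within each fraction; the scaling step itself is not given in the sources used here. The design set a count test for raw counts and limma for scaled values; since the values were scaled, limma 3.58.1 in R 4.3.3 was used, with trend and robust, on log2(TMM-scaled signal + 2). Genes needed a value of 10 in 3 libraries and a sum of 15. A call needed a Benjamini-Hochberg adjusted p below 0.05 over all genes tested and a log2 fold change beyond 0.5, or adjusted p alone for the difference of KO effects. Groups came from the genotype and tissue labels; control titles say wt, while their genotype label is heterozygous.

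The 10 genes and the lists were chosen with earlier results of these data known. Named genes were the 10 in every comparison, Ptpn11, from each list up to 2 of the largest called rises and falls and the most abundant gene, the most abundant of each marker list, and the 3 genes most like the members with the largest rise and fall in Het rods. Of the rod markers in the design, 1 is not reported here and was left out of the marker sums and counts. Values with the GC trend removed are given for list genes chosen by the fit without it. Lengths, GC content and overlaps came from GENCODE M21 (GRCm38), matched by Ensembl identifier. GC content was known for 98.9% of the genes tested in rods. Same-numbered libraries correlated in their deviations from group means at 0.47, 0.41 and 0.25 between Het rod and Het retina, which are paired by this measure. In both Het fractions the lens share was lowest in replicate 1 (0.00104% in retina, 3.69e-05% in rods). The pigment epithelium share was highest in replicate 3 of both (0.0326 and 0.00151%). No other comparison had every pair above 0.1, which does not exclude pairing. No 2 libraries were alike: at most 1.43% of 10530 genes had equal values. The fit was tested on simulated data. Scaling, pseudocount, filter, block, GC correction and each library left out were varied.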

Additional observations from a re-analysis of the deposited data

How the results depend on the processing

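Of the log2 fold changes refitted under other settings, 2016 kept their direction and their side of the threshold, 122 lost a call, 22 gained one and 79 changed sign. Of the counts, 232 stayed within a factor of 1.5 of the reported count, 13 were above and 25 below. The 232 include counts that were 0 in both fits, as was every count of the difference of KO effects. Sqstm1 was called lower in rods under every setting. The causes of the changes below were not tested, except where stated.

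With library size only, Het rod against Het retina gave 0 genes of the 10 higher and 5 lower, with Becn1 −0.23, Rubcn −0.34, Map1lc3b −0.05 and Lamp2 −0.14. KO rod against KO retina gave 0 and 3, with Ulk1 −0.50, Becn1 −0.46, Rubcn −0.15, Atg7 −0.04, Lamp2 −0.51, Tfeb −0.49 and Rb1cc1 0. KO rods against Het rods gave 2 higher, and Atg7 in KO retina was −0.01. With relative log expression scaling Tfeb in KO rod against KO retina was −0.01. Without trend and robust steps, 1 of the 10 was lower in Het rods against Het retina, where 36.4% of all genes were. In KO rods against Het rods 2 of the 10 were higher, where 8.3% of all genes were, and 1 gene was called in KO retina. With adjusted p alone, 7 were higher and 1 lower in KO rods, where 17% of all genes were higher and 7.01% lower, and 3139 genes passed.

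With the GC trend removed, 1 of the 10 was lower in Het rods and Becn1 was −0.02, Map1lc3a 0.02 and Tfeb 0.05. In KO rod against KO retina 1 was higher. In KO rods against Het rods 0 of the 10 and 453 genes were called (506 with the replicate block too), with Becn1 0.25, Atg5 0.26, Map1lc3a −0.07, Map1lc3b −0.04 and Lamp2 0.03. In KO retina Atg7 was −0.01 and Lamp2 0.02. The difference of KO effects was 0.12 for Becn1, 0.22 for Atg5, −0.14 for Map1lc3a, −0.05 for Map1lc3b and 0.04 for Lamp2. These values were the same with the replicate block. In 1 fit of all groups, 0 genes were called in KO rods, with Ulk1 0.57, Atg7 0.58, Map1lc3a 0.82, Tfeb 1.39, and Becn1 and Atg5 0.01, and Atg7 in KO retina was −0.01.

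The replicate block called 4 of the 10 lower in Het rods instead of 2, where 37.6% of all genes were called lower. It changed no other call of the 10. Same-numbered libraries correlated at 0.33, −0.01 and 0.18 between KO rod and KO retina, 0.18, 0.03 and 0.03 between the rod groups and 0.40, −0.59 and −0.14 between the retina groups, so this measure alone paired none of these. In KO, lens and pigment epithelium shares rose from replicate 1 to 3 in both fractions, so pairing by number there is not excluded.

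With each library left out in turn, values ranged as follows. In Het rod against Het retina: Atg5 0.54 to 0.77, Atg7 −0.17 to 0.1, Becn1 0.17 to 0.34, Lamp2 0.16 to 0.7, Map1lc3a −1.21 to −0.52, Map1lc3b 0.35 to 0.62, Rubcn 0.04 to 0.27, Sqstm1 −2.13 to −1.81, Tfeb −1.16 to −0.45, Ulk1 −0.65 to −0.23, genes of the 10 called higher 1 to 2, genes of the 10 called lower 1 to 4. In KO retina against Het retina: Atg5 0.01 to 0.07, Atg7 −0.16 to 0.28, Becn1 0.08 to 0.15, Lamp2 −0.25 to 0.24, Map1lc3a −0.11 to 0.62, Map1lc3b −0.06 to 0.26, Rubcn −0.08 to 0.15, Sqstm1 −0.22 to 0.21, Tfeb −0.06 to 0.91, Ulk1 −0.23 to 0.23, genes called 0 to 1. In KO rod against Het rod: Atg5 −0.11 to 0.1, Atg7 0.46 to 0.63, Becn1 −0.08 to 0.06, Lamp2 −0.43 to −0.3, Map1lc3a 0.59 to 0.9, Map1lc3b 0.17 to 0.28, Rubcn 0.23 to 0.35, Sqstm1 0.36 to 0.54, Tfeb 0.93 to 1.57, Ulk1 0.43 to 0.68, genes called 1067 to 1966, genes of the 10 called higher 1 to 5, genes of the 10 called lower 0 to 0. In KO rod against KO retina: Atg5 0.55 to 0.65, Atg7 0.26 to 0.65, Becn1 0.05 to 0.17, Lamp2 −0.09 to 0.1, Map1lc3a −0.61 to −0.12, Map1lc3b 0.46 to 0.68, Rb1cc1 0.35 to 0.71, Rubcn 0.34 to 0.45, Sqstm1 −1.74 to −1.36, Tfeb −0.42 to 0.49, Ulk1 −0.06 to 0.2, genes called 6537 to 9573, genes of the 10 called higher 1 to 3, genes of the 10 called lower 1 to 2. For the difference of KO effects between rod and retina: Atg5 −0.16 to 0.09, Atg7 0.24 to 0.69, Becn1 −0.23 to −0.03, Lamp2 −0.62 to −0.13, Map1lc3a 0.13 to 0.86, Map1lc3b −0.05 to 0.27, Rubcn 0.12 to 0.38, Sqstm1 0.21 to 0.61, Tfeb 0.43 to 1.36, Ulk1 0.28 to 0.74. With a library left out, 19.5 to 32% of all genes tested were called higher and 20.6 to 35.1% lower in Het rod against Het retina. In KO rod against KO retina these shares were 24.1 to 32.1% higher and 22.1 to 35.2% lower. In KO rod against Het rod they were 7.48 to 12.7% higher and 0.668 to 2.5% lower. Leaving out a retina library lowered the genes tested in rods against retina from 16110 to about 13394, since 3 libraries must pass the filter. With genes depleted in rods removed, 8 of the 10 were tested in KO rods and 3 were called higher, where 13.2% of 10134 genes were called higher and 1.86% lower.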

Other observations

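Several limits apply. Each group had 3 libraries, and the sources used here do not say which libraries share an animal. The deposited values had been scaled, so the exact reads behind each value are unknown, and genes as low as Tfeb rest on few of them. Controls carried Cre and 1 floxed Shp2 allele, and no group without Cre or with both alleles intact was sequenced, so effects of the first allele were not measured. Protein, LC3 lipidation and autophagic flux were not measured, and mRNA levels do not give the rate of autophagy.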
